A study of Rattus norvegicus with 21 samples.

Results

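This account concerns 7 genes of rat insulinoma cells, Cpne9, Prok2, Cilp2, Rasgrp2, Tmem255b, Majin and Qrich2, out of 32750 rows in the mRNA table. They were chosen from the measured values. They are 5 of the largest rises and 2 of the largest falls between the 2 mRNA groups, picked where the mean reached 50 normalized counts, with no overlap between groups and no well-known role in stress. Their own differences are therefore given as a description, without a test. The cells were INS-1 832/13, an insulin-secreting clonal line from a rat beta cell tumour, seeded 24 h before exposure. One mRNA group was labelled as exposed to 1 µM inorganic arsenic (iAs) for 24 h (5 libraries), and the other, the control, as untreated (4 libraries). Both groups were the same line, handled for the same time. Small RNA from cells given iAs, cadmium, manganese or nothing was sequenced too and is not used here.

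A copine is an intracellular protein that binds phospholipid membranes in a calcium-dependent way. Prokineticins are small secreted ligands of G protein-coupled receptors, and a RasGRP protein switches on a small GTPase of the Ras and Rap group after calcium and diacylglycerol signals, which in beta cells also act on insulin secretion. Majin and Qrich2 are known from the germ line, in meiosis and in the building of the sperm tail, and neither is a recognised beta cell gene.

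Facts of the mRNA libraries that touch these genes come first. Column totals lay between 51009800 and 55869159 normalized counts, and 1 read was worth 0.81 to 1.197 normalized counts. The labels give the tissue as liver, which goes against the cell line: albumin (Alb) did not exceed 2.01 normalized counts in any library, while all 13 beta cell markers passed the mean of 10, with Ins1 at 1508100 ± 216850 in libraries labelled iAs and 1811300 ± 252880 in untreated ones (SD, n = 5 and 4). By limma, over all 14410 tested genes, 30.0% were called at an adjusted p under 0.05, 15.1% higher and 14.9% lower in libraries labelled iAs, against which the counts of each list stand. Of the 13 beta cell markers 2 were higher and 2 lower, a share near that of all genes, and 1 was higher without untreated replicate 1 or 3. Of 7 tested hepatocyte genes none was higher and 3 were lower. Alb, Fga and Cyp2e1 of that list stayed under the mean of 10, and Apoa1 was just above it. Others were clearly measured, so Alb does not stand for the whole list. Mean normalized counts in iAs and untreated libraries were 4280 and 4067 for Hnf4a, 1286 and 1225 for Tf, and 972 and 1330.5 for Ass1. They were 274 and 390.5 for Serpina1, 252 and 637 for Fgb, and 71.7 and 126 for Apob. Of 5 tested markers of other cell types 2 were higher and 2 lower. Sox9 (445 and 84.5 normalized counts in iAs and untreated libraries) and Rbfox3 (393 and 263) were higher. Cd74 (13.5 and 80.7) and Col1a1 (5.33 and 19.5) were lower, and Map2 (3912 and 4477) was not called. Only 1 was lower without iAs replicate 4 or 5 or untreated replicate 1, 2 or 3, and none was lower when genes needed a mean of 50. Of the markers not tested, Ptprc, Pdgfrb, Prss1, Cela1 and Cpa1 were listed at 0 in every library. Several genes known to rise with arsenic went against the group labels. Hmox1, heme oxygenase, had 1739 ± 465 normalized counts in libraries labelled iAs, against 14132 ± 1727 in libraries labelled untreated. Of 9 tested arsenic response genes, 6 were lower in libraries labelled iAs and none was higher, beside 14.9% lower and 15.1% higher over all genes. Txnrd1 (log2 -0.01, adjusted p = 0.895), Hspa1a (-0.01, adjusted p = 0.969) and Slc7a11 (-0.82, adjusted p = 0.407) were not called. The summed level of the list was 16944 to 19910 normalized counts in libraries labelled iAs, against 35167 to 40205 in libraries labelled untreated. That sum includes Hmox1, whose difference was the largest of the list. Every direction below thus rests on the libraries as labelled. Flow cell lane also separated the groups, since every iAs library was read in lane 4 and every untreated library in lane 3, so lane and treatment cannot be told apart. In such bulk RNA, fewer cells of a kind and less RNA per cell cannot be told apart either.

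Sequences of the start regions are shown for Prok2 and Rasgrp2 because these rises share a motif that few promoters hold. The RefSeq table (build GRCr8) matched 6 of the 7 genes, and each window runs from 250 bases before to 50 bases after the gene's start. Prok2 lies on the minus strand at chr4:133917884-133918183, and Rasgrp2 on the plus strand at chr1:213136484-213136783. Capitals mark the E-box CACGTG, the AP-1 motif TGANTCA and the TATA box TATAAA, the last read from the other strand as TTTATA. Other motifs given below, such as the metal response cores of Rasgrp2, are not marked on their own.
Prok2: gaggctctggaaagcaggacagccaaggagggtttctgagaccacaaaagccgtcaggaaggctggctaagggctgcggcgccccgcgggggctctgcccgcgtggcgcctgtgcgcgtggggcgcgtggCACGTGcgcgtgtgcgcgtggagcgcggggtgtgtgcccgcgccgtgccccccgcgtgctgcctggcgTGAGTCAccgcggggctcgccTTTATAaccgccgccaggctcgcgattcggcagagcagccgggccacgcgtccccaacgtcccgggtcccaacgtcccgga
Rasgrp2: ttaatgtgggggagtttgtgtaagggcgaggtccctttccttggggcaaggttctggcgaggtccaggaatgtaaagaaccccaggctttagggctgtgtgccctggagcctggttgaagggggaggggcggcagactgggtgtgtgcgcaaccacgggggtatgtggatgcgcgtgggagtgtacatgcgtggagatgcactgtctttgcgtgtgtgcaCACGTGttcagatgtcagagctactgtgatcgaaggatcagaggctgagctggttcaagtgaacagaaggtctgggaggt

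The E-box, a palindrome bound by clock and other helix-loop-helix factors, began 120 bases before the start of Prok2 and 30 bases before that of Rasgrp2. It was found on either strand in 6.4% of all 33469 promoter windows. The Prok2 window also held TGANTCA at 52 bases and the TATA box at 31 bases before the start; 7.3% and 14.2% of all windows held these. Prok2 had 72.7% G and C and 40 CpG pairs, against medians of 51.7% and 7 over all windows. Of the other matched genes, Cilp2 had 63.7% G and C, Cpne9 62.7%, Tmem255b 59.3% and Majin 49.7%, and none held those 3 motifs. The core of the antioxidant response element, TGACNNNGC, was in 12.1% of all windows and in none of the 6. The metal response cores TGCACNC and TGCGCNC were in 12.2% and 14.1% of all windows; Rasgrp2 held both, and Majin and Cpne9 held TGCGCNC. The hypoxia response cores ACGTG and GCGTG were in 19.3% and 29.7%; Prok2 and Rasgrp2 held both, Majin and Cilp2 the GCGTG form, and ACGTG lies within CACGTG. The NF-kB motif was in 7.5% of all windows and in that of Cilp2. These are letter matches in a window of another build than the rn6 build named for the files, and say nothing of binding.

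Among secreted products, Prok2 encodes prokineticin 2, a ligand that carries clock output from the suprachiasmatic nucleus in mice and guides neurons to the olfactory bulb. Prok2 (ENSRNOG00000010898) had 145, 168, 98.2, 223.5 and 160.1 normalized counts in the libraries labelled iAs, against 20.8, 15.4, 18.3 and 31.7 in the untreated libraries. The lowest iAs library, replicate 3, was 3.09 times the highest untreated one, replicate 4. The means were 159 ± 45.1 in iAs libraries and 21.6 ± 7.145 in untreated libraries (SD, n = 5 and 4), a 7.37-fold difference and 2.83 ± 0.27 (SE) on the log2(value + 1) scale used throughout. Prok2 had few reads in the untreated libraries, where its lowest value stood for about 15 reads (14.7 by the value of 1 read). Its receptors were barely measured: Prokr1 averaged 10.95 ± 4.86 normalized counts in iAs libraries and 16.1 ± 8.78 in untreated libraries, a log2 difference of -0.39 that did not pass the test (adjusted p = 0.638), and Prokr2 and the second ligand Prok1 stayed under the mean of 10.

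Cilp2 encodes cartilage intermediate layer protein 2, a secreted protein of the extracellular matrix. Cilp2 (ENSRNOG00000020622) had 1039, 899.5, 1106, 745 and 621 normalized counts in iAs libraries, against 137, 180.3, 132 and 113 in untreated libraries. All 5 iAs libraries were above all 4 untreated ones, the nearest by 3.44 times. The means were 882 ± 201 in iAs libraries and 140.5 ± 28.3 in untreated libraries (SD, n = 5 and 4), 6.28-fold apart, or 2.63 ± 0.18 (SE) in log2. Its closest relative Cilp did not pass the mean of 10.

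Rasgrp2 encodes CalDAG-GEFI, a calcium-sensitive exchange factor that loads the GTPase Rap1 and is known for switching on platelet integrins. Rasgrp2 (ENSRNOG00000021098) had 374, 410.2, 418, 417 and 325 normalized counts in iAs libraries, against 80.9, 57.7, 82.3 and 41.5 in untreated libraries. The iAs values were tight, with a coefficient of variation of 10.3% against 30.0% in untreated libraries, and the nearest libraries were 3.95 times apart. The means of 389 ± 39.9 in iAs libraries and 65.6 ± 19.7 in untreated libraries (SD, n = 5 and 4) differed 5.93-fold, or by 2.60 ± 0.20 (SE) in log2. Cpne9 encodes a copine. Cpne9 (ENSRNOG00000023077) had 496, 720.5, 534, 394 and 340.2 normalized counts in iAs libraries, against 37.2, 53.4, 74.9 and 78.9 in untreated libraries. Here too no library of one group reached the other, and the gap between the nearest was 4.31 times, the widest among the 7 genes. The means of 497 ± 147 in iAs libraries and 61.1 ± 19.5 in untreated libraries (SD, n = 5 and 4) were 8.13-fold apart, or 3.01 ± 0.25 (SE) in log2.

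Tmem255b encodes a membrane-spanning protein with little described function. Tmem255b (ENSRNOG00000026336) had 209, 240.6, 123.5, 197 and 149 normalized counts in iAs libraries, against 16.5, 36.9, 24.7 and 58.8 in untreated libraries. It had the narrowest gap of the 7, 2.10 times between iAs replicate 3 and untreated replicate 4, and untreated libraries varied 3.57-fold among themselves. The means were 184 ± 47.0 in iAs libraries and 34.2 ± 18.4 in untreated libraries (SD, n = 5 and 4), 5.37-fold apart, or 2.50 ± 0.33 (SE) in log2. Among the libraries whose code in the description ends in 52 (iAs replicates 1, 4 and 5, untreated replicates 1 and 3) the log2 difference was 3.12.

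Both falls are germ line genes. Majin encodes the membrane-anchored junction protein, which with Terb1 and Terb2 ties telomeres to the nuclear envelope in meiosis in mice. Majin (ENSRNOG00000054336) had 17.2, 7.19, 8.235, 33.45 and 13.0 normalized counts in iAs libraries, against 94.1, 82.9, 140.3 and 118 in untreated libraries. Its iAs libraries spread 4.65-fold, from iAs replicate 2 (about 6.0 reads) to iAs replicate 4, and iAs replicate 4 was still 2.48 times under the lowest untreated library. The means of 15.8 ± 10.6 in iAs libraries and 109 ± 25.6 in untreated libraries (SD, n = 5 and 4) differed 6.87-fold, a log2 difference of -2.88 ± 0.40 (SE). Qrich2 encodes glutamine-rich protein 2, needed for the sperm flagellum in mice and in humans. Qrich2 (ENSRNOG00000025254) had 30.2, 18.0, 11.8, 32.5 and 29.1 normalized counts in iAs libraries, against 129.7, 140.6, 111 and 119.7 in untreated libraries. The groups stood 3.41 times apart at their nearest libraries, and the untreated libraries were within 1.27-fold of each other. The means of 24.3 ± 8.97 in iAs libraries and 125.2 ± 12.8 in untreated libraries (SD, n = 5 and 4) differed 5.15-fold, a log2 difference of -2.40 ± 0.30 (SE).

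**Figure D1:**
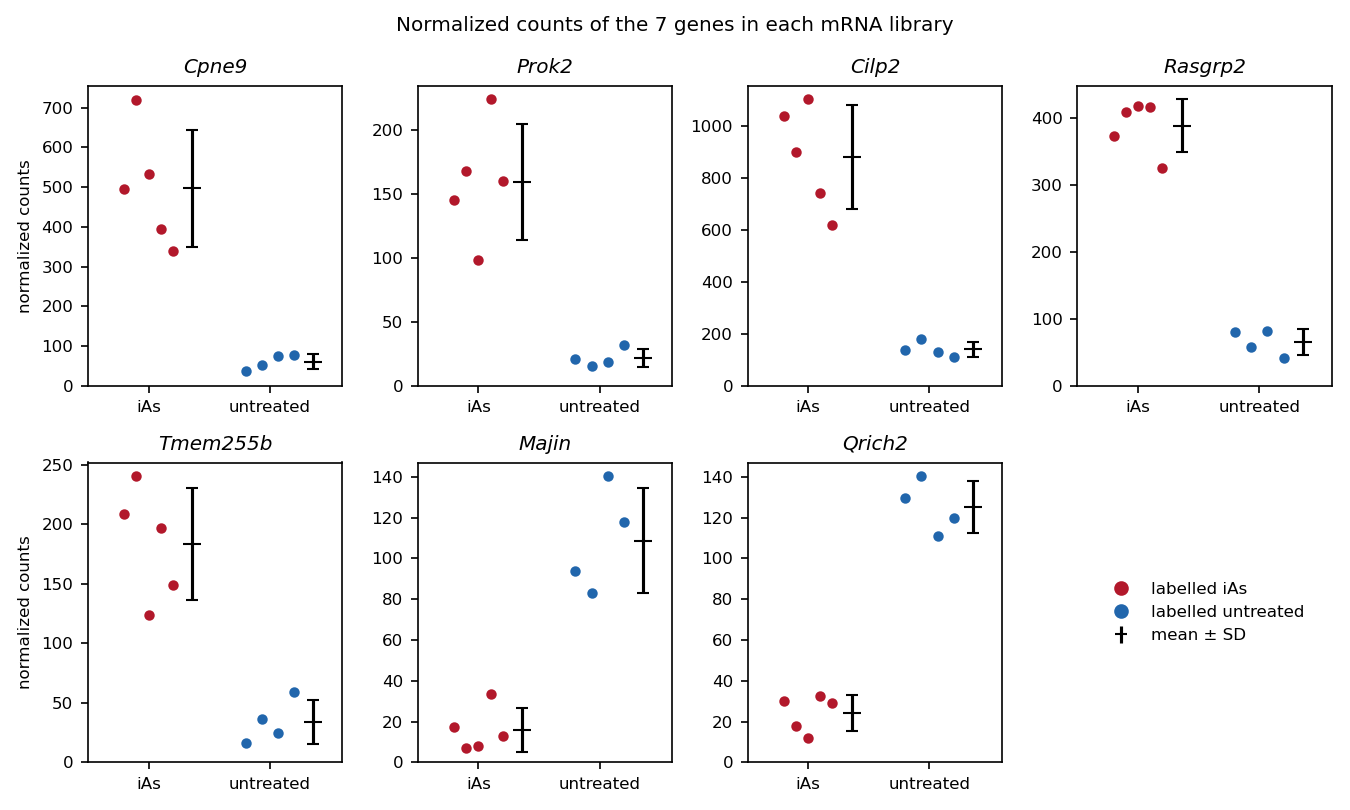
Normalized counts (linear axes from 0) of the 7 genes, 1 point per mRNA library, with the libraries labelled iAs (red, 5) left of those labelled untreated (blue, 4) and bars for mean ± SD. In Cpne9, Prok2, Cilp2, Rasgrp2 and Tmem255b every iAs library lies above every untreated library, and in Majin and Qrich2 every iAs library lies below.

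Groups without overlap were common at a mean of at least 50: 14.1% of 12785 genes were higher and 13.8% lower in libraries labelled iAs in this way, and the choice of the genes fixed it here. Among those rises only the thioredoxin inhibitor Txnip (log2 3.14) came before Cpne9, and the 5 rising genes held ranks 2 to 6. Just outside came Sox9 (2.40), Ptpru (2.37) and Gas7 (2.34). Among falls, Icam1 (-3.82), Cxcl10 (-3.71) and Hmox1 (-3.06) were larger than Majin at rank 4. LOC103694381 (-2.61) and Madcam1 (-2.59) stood between Majin and Qrich2, and Tinagl1 (-2.39) just outside. The means of Majin and Qrich2, 57.1 and 69.1 over the 9 libraries, were close to the limit of 50. Just under that limit, Cd74 (mean 43.4) and Stap2 (mean 42.9) had log2 differences of -3.05 and -2.74. All 7 genes passed the mean of 10 used for testing.

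**Figure D2:**
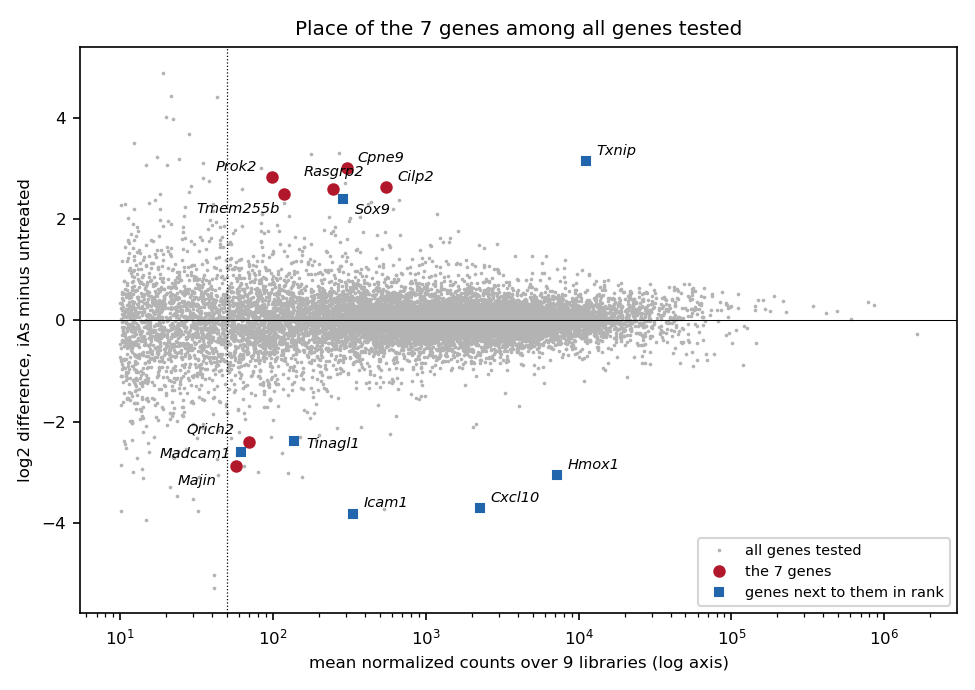
The log2 difference, iAs minus untreated, against the mean normalized counts over 9 libraries (log axis) for 14410 tested genes (grey), with the 7 genes (red circles) and genes near them in rank (blue squares); the dotted line marks a mean of 50. The 7 genes lie at the edge of the cloud for their level, and Majin and Qrich2 sit close to the line.

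Within a group the 7 genes did not move as a block. After the group means were taken off, Pearson's r over the 9 libraries ran between -0.738 and 0.668 for the 21 pairs, with a median of 0.02. Majin and Qrich2 were the most alike pair (0.668), followed by Cpne9 with Tmem255b (0.586) and Prok2 with Majin (0.562). Prok2 and Cilp2 were the most opposed (-0.738), and Rasgrp2 and Tmem255b nearly as much (-0.727). These values describe 9 libraries and carry no test. The depth and handling of a library are common to all its genes, and depth differed, with 1 read worth 0.81 to 1.197 normalized counts. Majin and Qrich2 had their lowest values in iAs replicates 2 and 3, where 1 read was worth most (1.197 and 1.177). Their highest iAs values were in iAs replicate 4, where it was worth least among iAs libraries (0.956). Whether depth bears on their correlation was not tested. By library, iAs replicate 4 was the highest of its group for Prok2, Majin and Qrich2, and iAs replicate 3 the lowest for Prok2, Tmem255b and Qrich2. For spread within groups, each gene was set against genes whose mean over the 9 libraries was within 2-fold of its own. Cpne9 varied more than 95.2% of 2387 such genes, Cilp2 more than 92.9%, Tmem255b more than 91.7% and Majin more than 87.2%. Rasgrp2 varied more than 81.6%, Prok2 more than 72.3% and Qrich2 more than 68.3%. By the choice of the 7, each has 1 group far below its own mean, a level the matching did not hold equal. How far this raised the shares was not tested.

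**Figure D3:**
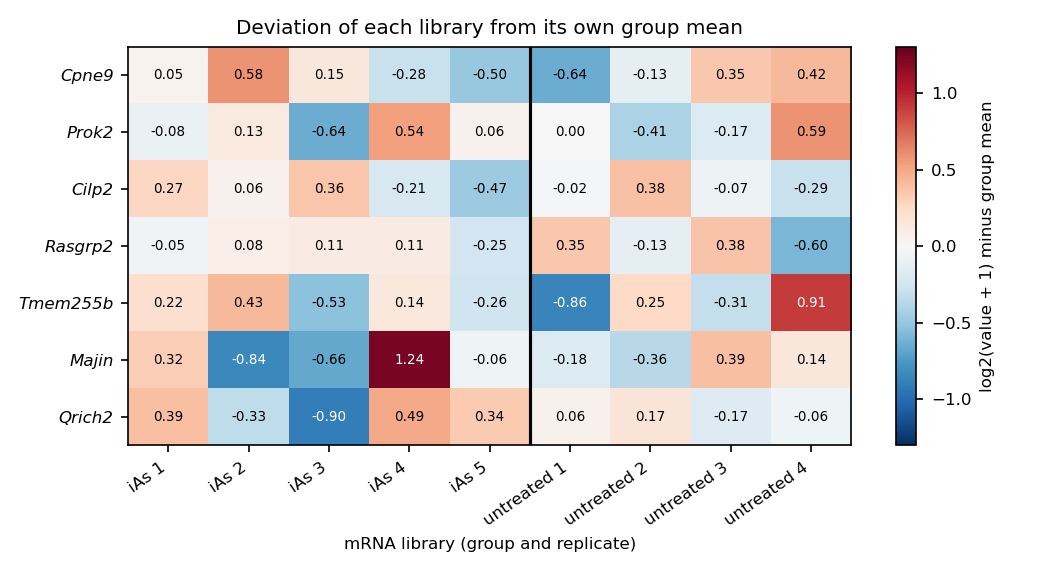
Deviation of each mRNA library from its own group mean, in log2(value + 1), for the 7 genes (rows); the 5 iAs libraries are left of the black line and the 4 untreated libraries right of it. Red is above and blue below the group mean, and the strongest deviations are those of Majin in iAs replicate 4 and of Tmem255b in untreated replicate 4.

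By the same measure, the genes most like each of the 7 over 9 libraries, among 12784 compared, were no common set. Jag1, a Notch ligand, was nearest to Cpne9 (r = 0.970), ahead of Zpr1 (0.942) and Tubgcp5 (0.938). Prok2 was nearest to Mrps5 (0.978), Zscan21 (0.966) and Comtd1 (0.965), and Cilp2 to Nup210 (0.978), Cercam (0.966) and Trafd1 (0.961). Rasgrp2 was nearest to Rnf32 (0.974), AC130232.2 (0.934) and RGD1305089 (0.931), and Tmem255b to Dpp6 (0.976), Slc18a1 (0.962), a vesicular monoamine transporter, and Mertk (0.959). Majin was nearest to Bet1l (0.947), AABR07044404.1 (0.946) and Tbc1d32 (0.944), and Qrich2 to Slc35g3 (0.981), RGD1359634 (0.974) and Paox (0.922). Each is the maximum of 12784 correlations, and none carries a test.

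The relatives of the 7 genes were not chosen for their own differences, so they were tested, with limma over all 14410 genes. The share called over all genes was the 30.0% given above, and the median log2 difference of all genes was -0.0007. Of the other copines, 7 were tested, 2 were higher and none lower, with a median log2 difference of 0.48. Cpne5 had 669.6 ± 111 normalized counts in iAs libraries and 423 ± 121 in untreated libraries (SD), a log2 difference of 0.69 ± 0.17 (SE, adjusted p = 0.00928). Cpne8 had 1245 ± 179 in iAs libraries and 890.1 ± 133 in untreated libraries, a difference of 0.48 ± 0.12 (SE, adjusted p = 0.0105). Both calls held in the 20 alternatives. Cpne7 (0.85, adjusted p = 0.0692), Cpne4 (0.85, adjusted p = 0.285), Cpne2 (0.10, adjusted p = 0.304), Cpne3 (-0.06, adjusted p = 0.601) and Cpne1 (-0.29, adjusted p = 0.868) did not pass. Cpne1 had an SD as large as its mean, 1162 ± 1211 in iAs libraries and 1143 ± 1179 in untreated libraries. No other tested copine came near the log2 difference of Cpne9, but Cpne9 was chosen as 1 of the largest rises, so such a gap was built in.

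Beside Rasgrp2, 8 other exchange factors for Ras or its relative Ral were tested. Of these, 1 was higher and 2 were lower, at a median of -0.05. Ralgds and the Rgl genes among them act on Ral. Rasgrp3 was lower: 694 ± 90.6 normalized counts in iAs libraries and 1239 ± 169.7 in untreated libraries, a log2 difference of -0.84 ± 0.12 (SE, adjusted p = 0.000254), which held in all 20 alternatives. Rasgrp1 averaged 24.1 ± 15.0 in iAs libraries and 41.3 ± 12.0 in untreated libraries and did not pass (-1.03, adjusted p = 0.190), and Rasgrp4 was under the mean of 10. The other calls, Ralgds (-0.16, adjusted p = 0.0287) and Rgl1 (0.29, adjusted p = 0.0328), were lost in 7 and 9 of 20 alternatives, Ralgds without iAs replicate 1, 3 or 5 or untreated replicate 1 or 3, and Rgl1 without any one library other than iAs replicate 2 or untreated replicate 4 (adjusted p between 0.0531 and 0.163 in these alternatives). Rap1 is the GTPase on which CalDAG-GEFI acts. Of 24 tested genes of the Rap pathway 6 were higher and none was lower (25.0% called, median 0.10), although 1 was lower without iAs replicate 1 and 2 without iAs replicate 3. Rapgef5, another Rap exchange factor, had 599.7 ± 30.2 normalized counts in iAs libraries and 309.5 ± 50.2 in untreated libraries, a log2 difference of 0.96 ± 0.11 (SE, adjusted p = 9.02e-05). Rapgef4, the cAMP sensor Epac2 that acts in insulin secretion, had 590.2 ± 61.3 in iAs libraries and 407 ± 14.5 in untreated libraries, a difference of 0.53 ± 0.10 (SE, adjusted p = 0.00145). The remaining rises, named after their values were seen, were Dock4 (0.74), Rassf5 (0.57), Sipa1l2 (0.47) and Rap1b (0.24), with adjusted p between 0.00161 and 0.0176. The call on Rassf5 was lost without untreated replicate 3 (adjusted p 0.0570 to 0.130 over the 3 of 20 alternatives that lost it), and that on Rap1b among the libraries whose code ends in 52 (0.0589 to 0.117 over 2 of 20). The abundant Rap1gap2 (0.08, adjusted p = 0.224) and the integrin adaptor Tln1 (-0.20, adjusted p = 0.0527) did not pass.

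Among genes of cartilage-type matrix other than Cilp2, 11 of 28 in the table were tested, 3 were higher and 1 was lower (median -0.14), and 2 were lower without iAs replicate 4. Col9a1, a collagen of cartilage, had 1914 ± 169.8 normalized counts in iAs libraries and 1255 ± 44.0 in untreated libraries, a log2 difference of 0.60 ± 0.07 (SE, adjusted p = 0.000103). Acan, the proteoglycan aggrecan (0.88, adjusted p = 0.00336, named after its value was seen), and Thbs3 (0.46, adjusted p = 0.00811) were higher too. Fmod, the collagen-binding fibromodulin, was lower, at 194 ± 28.9 in iAs libraries and 372 ± 35.4 in untreated libraries (-0.94 ± 0.13 SE, adjusted p = 0.000309). Col11a1, Lum, Dcn, Hapln1 and Epyc were listed at 0 in every library, so the list was only partly measured. Its summed level was 4230 to 5174 normalized counts in iAs libraries and 3287 to 4034 in untreated libraries. Most of that sum came from Col9a1 and Thbs3 (1780 in iAs and 1301 in untreated libraries), so it does not speak for the list as a whole. The relative of Tmem255b, Tmem255a, differed by -0.86 ± 0.36 (SE) without passing (19.8 ± 8.30 in iAs libraries and 34.7 ± 6.43 in untreated libraries, adjusted p = 0.0906).

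Of the partners of Majin, Terb1 was under the mean of 10 and Terb2 was listed at 0 in every library. Sun1, a nuclear envelope protein used at meiotic telomeres but made in most cells, was higher, with 12421 ± 623 normalized counts in iAs libraries and 9686 ± 591 in untreated libraries (log2 0.36 ± 0.06 SE, adjusted p = 0.000624). Sun2 was lower, with 6977 ± 562 in iAs libraries and 8765 ± 448 in untreated libraries (-0.33 ± 0.06 SE, adjusted p = 0.00236). With the shelterin genes Tinf2 (-0.38, adjusted p = 0.0138) and Terf2ip (-0.22, adjusted p = 0.0149), named after their values were seen, 3 of 11 tested telomere genes were lower and 1 higher (median -0.08); 2 were higher without iAs replicate 2. Among the libraries whose code ends in 52, 1 telomere gene was lower, since Tinf2 and Terf2ip lost their calls. The related Qrich1 did not pass (-0.09, adjusted p = 0.221). Of 13 tested genes of meiosis, Rad21l1, a meiotic cohesin, was lower, at 6.52 ± 7.23 in iAs libraries and 29.0 ± 13.6 in untreated libraries (-2.30 ± 0.60 SE, adjusted p = 0.0131). This call held without each library in turn but was lost with a block on replicate number (adjusted p = 0.0543). Rad21l1 had few reads, and its groups overlapped (19.2 in iAs replicate 2, 18.6 in untreated replicate 1). The call on Sycp2 (0.55, adjusted p = 0.0330) was lost without iAs replicate 1 or 3 or untreated replicate 2, 3 or 4 (adjusted p 0.0541 to 0.338 over the 8 of 20 alternatives that lost it). That on Msh5 (-0.55, adjusted p = 0.0378), named after its value was seen, was lost without any one library other than iAs replicate 1 or untreated replicate 3 (0.0507 to 0.376 over 10 of 20). The abundant Hormad2 did not pass (-0.12, adjusted p = 0.393). Of 25 tested sperm flagellum genes, 2 were higher and 4 lower, a share called of 24.0%. Rsph3 (-0.59, adjusted p = 0.00449), a radial spoke protein, and Akap3 (-1.23, adjusted p = 0.0120), of the sperm fibrous sheath, were lower, and held without each library in turn, although Rsph3 lost its call among the libraries whose code ends in 52 (adjusted p = 0.108). The others, named after their values were seen, were Dnah8 (-0.30), Cfap43 (-0.66), Ccdc40 (0.72) and Dnah17 (1.84). Of these, Dnah8, Dnah17 and Cfap43 lost their calls in 4, 6 and 10 alternatives (adjusted p 0.0505 to 0.213). Ccdc40 lost its call only with a block on replicate number (adjusted p = 0.0515). In the list, 1 gene was higher without iAs replicate 1, 3, 4 or 5, and 2 were lower without untreated replicate 2 or 3. Of 17 germ cell markers 4 were tested and none called, the vasa gene Ddx4 did not exceed 0.81 normalized counts, and Dazl, Mael, Piwil1, Prm1, Prm2 and Tnp1 were listed at 0 in every library. A listed 0 need not mean that a gene is silent: Exoc7, an exocyst subunit used in most cells and a neighbour of Qrich2, was also listed at 0 in every library except iAs replicate 1. The summed level of the germ cell markers was 84.3 to 124 normalized counts in iAs libraries and 64.01 to 131 in untreated libraries.

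**Figure D4:**
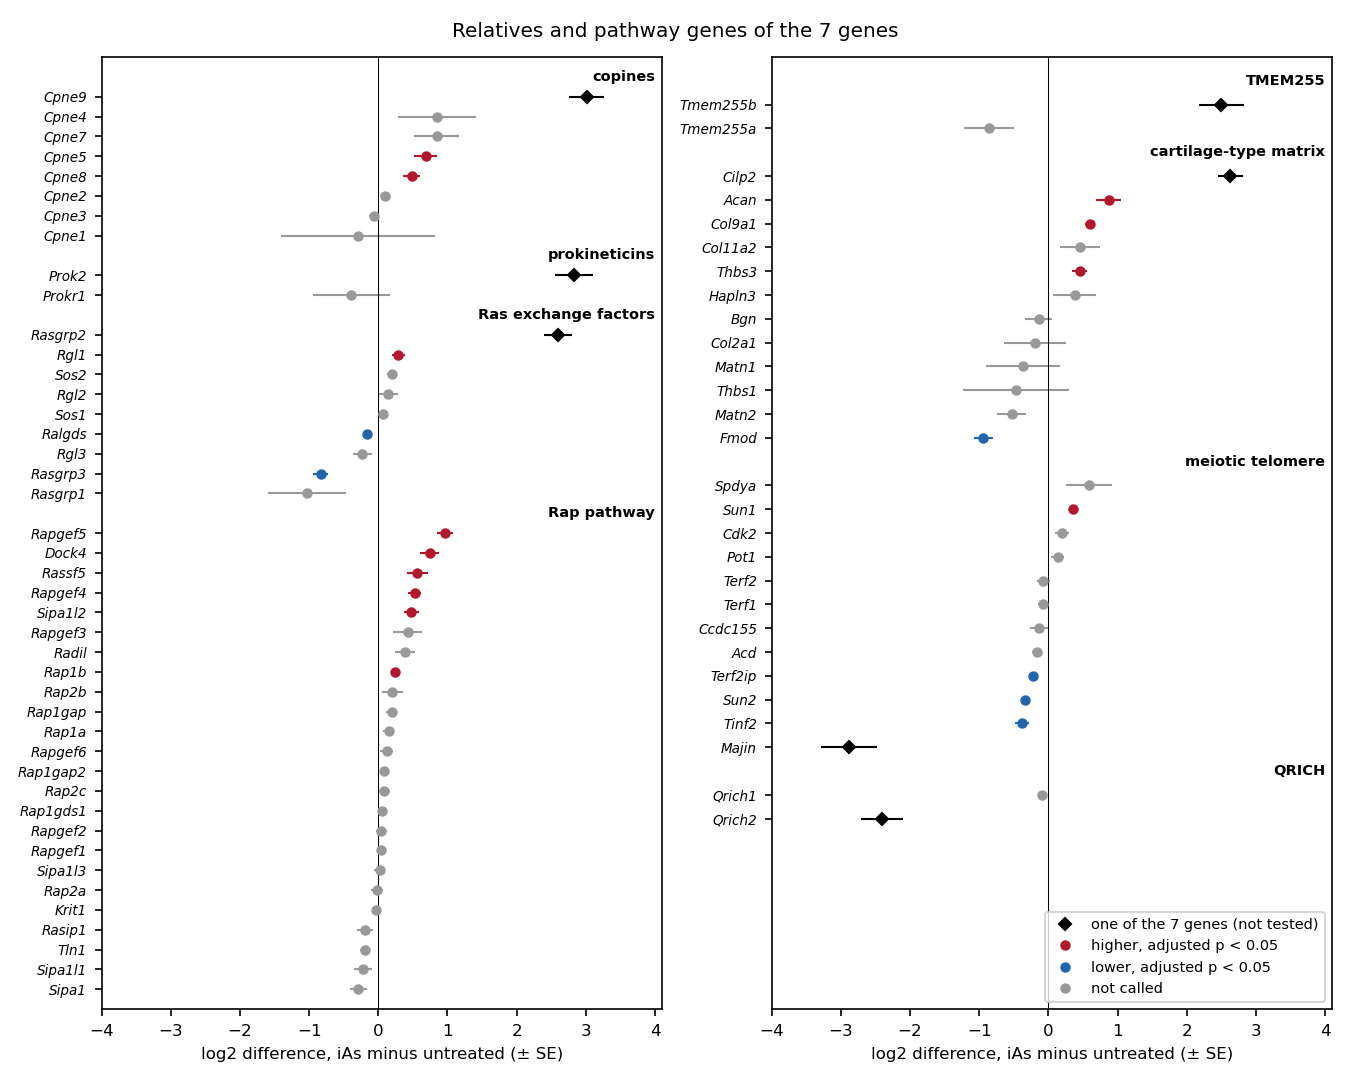
Log2 difference, iAs minus untreated (points ± SE), for the 7 genes (black diamonds, not tested) and the tested members of their families and pathways, with genes called higher in red, lower in blue and not called in grey. No relative is as far from 0 as the gene of the 7 in its own block, which the choice of the 7 by size of difference favours. Of the called relatives drawn here, Rapgef5 (0.96) and Fmod (-0.94) are farthest from 0. The meiosis and sperm flagellum lists are not drawn, and the block of Ras exchange factors includes those for Ral.

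Genes around each of the 7, by gene order in RefSeq GRCr8, were examined next. On each side these were the 3 nearest with a row in the mRNA table, and genes without a row were passed over. Of these 42 neighbours 37 were tested, 7 were higher and 5 lower, which is 32.4% called beside 30.0% over all genes, with a median log2 difference of 0.01. The largest called difference was that of Rasa3, a GTPase-activating protein for Ras and Rap that lies beyond Gas6 from Tmem255b, with 2531 ± 203 normalized counts in iAs libraries and 1653 ± 178 in untreated libraries (0.62 ± 0.08 SE, adjusted p = 0.000214). Around Tmem255b, Gas6, a secreted receptor ligand (0.31, adjusted p = 0.0212), and Tfdp1 (0.33, adjusted p = 0.000197) were higher too. Gas6 overlaps Tmem255b in that annotation, on the other strand, and had 19866 ± 2414 normalized counts in iAs libraries and 15924 ± 1430 in untreated libraries. Whether reads were counted by strand is not given in the sources used here, so reads of this pair may not be fully separated, and likewise for Rasgrp2 and the overlapping non-coding LOC120097407. The call on Gas6 was lost without untreated replicate 1 or 2 (adjusted p 0.0524 to 0.0696 over the 4 of 20 alternatives that lost it). Prok2 lies beside Rybp, a Polycomb protein (0.36, adjusted p = 0.000278), and Gpr27 (0.27, adjusted p = 0.0313), both higher. The call on Gpr27 was lost without iAs replicate 1, 3, 4 or 5 or untreated replicate 2 or 4 (0.0504 to 0.0985 over 9 of 20). Beside Cpne9, Mtmr14 was lower (-0.19, adjusted p = 0.0362), a call lost without iAs replicate 1, 2 or 4 or untreated replicate 1, 2 or 4 (0.0551 to 0.188 over 8 of 20). Near Cilp2, Ndufa13 was lower (-0.21, adjusted p = 0.0167), a call lost without untreated replicate 1 (0.0509 to 0.113 over 2 of 20). None of the neighbours of Qrich2 was called.

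Majin, which fell, and Rasgrp2, which rose, lie on chromosome 1 with 9 protein-coding genes between them. All 9 were tested, none was higher and 2 were lower, Ppp2r5b (-0.27, adjusted p = 0.0449) and Atg2a (-0.24, adjusted p = 0.00721). The call on Ppp2r5b was lost without iAs replicate 2, 4 or 5 or untreated replicate 1, 2 or 3 (adjusted p 0.0603 to 0.127 over the 10 of 20 alternatives that lost it), and that on Atg2a among the libraries whose code ends in 52 (0.0661). Next to Majin, Gpha2, a glycoprotein hormone subunit, had few reads: 5.26 ± 3.31 normalized counts in iAs libraries and 16.1 ± 7.66 in untreated libraries, a log2 difference of -1.67 ± 0.70 (SE) that did not pass (adjusted p = 0.0951). Next to Rasgrp2, the muscle glycogen phosphorylase gene Pygm had 26.7 ± 9.96 in iAs libraries and 49.7 ± 12.3 in untreated libraries (-0.95, adjusted p = 0.0777). Beyond this stretch Snx15, on the far side of Majin, was lower (-0.18, adjusted p = 0.0244), while Nrxn2 (0.23, adjusted p = 0.0352) and Rps6ka4 (0.24, adjusted p = 0.00422), on the far side of Rasgrp2, were higher. Snx15 lost its call without iAs replicate 2 or untreated replicate 1 (0.0508 to 0.144 over 4 of 20), and Nrxn2 without iAs replicate 1, 3 or 5 or untreated replicate 1, 3 or 4 (0.0554 to 0.111 over 10 of 20).

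**Figure D5:**
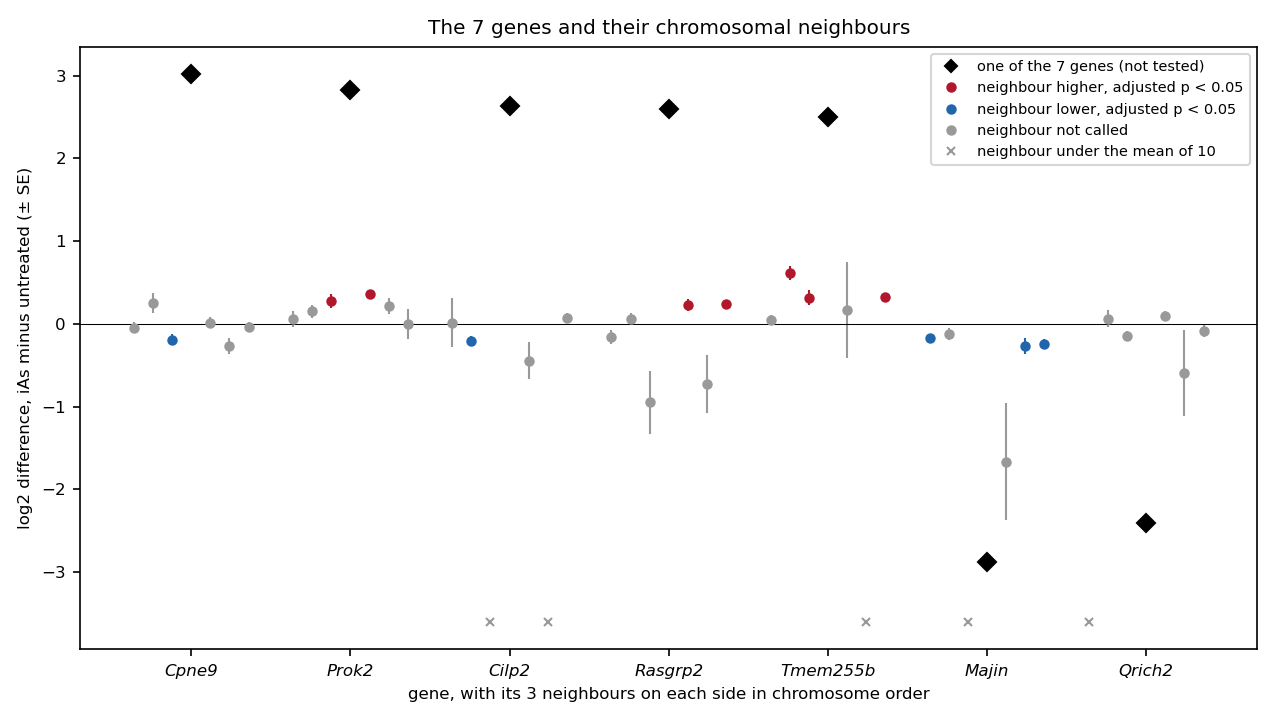
Log2 difference, iAs minus untreated (± SE for neighbours), of the 7 genes (diamonds, not tested) and their 3 nearest listed neighbours on each side in chromosome order. Called neighbours are red (higher) or blue (lower) and others grey. Crosses mark those under the mean of 10, drawn at the foot without a value. No called neighbour passes 0.62 in either direction.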

How the data were processed

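The authors deposited a signal per gene for each mRNA library, named in the labels as DESeq2 normalized counts. Per the submitters' processing notes, DESeq2, STAR and Salmon and the build rn6 were used, with versions and roles not given in the sources used here. Whole reads were not recovered, because only 47.9% to 71% of low values were whole multiples of 1 read within 0.02, so no count test was run. Columns were matched by the library code in the description, and for 4 libraries the title gives another code of the same group. Differences were computed in R 4.3.3 with limma 3.58.1 (limma-trend, two-sided) on log2(value + 1). Genes needed a mean of 10 or more (14410 of 32750), and p-values were adjusted by Benjamini-Hochberg over all of them at 0.05. The labels tie no library to a culture of its own, so the p-values measure only the spread between these libraries, possibly technical. The 7 genes, the 15 gene lists and the rule for named genes were chosen with earlier results of these data known. That rule took whole families, the 2 smallest p and 2 highest means of each other list, the neighbours and the most similar genes. The test was checked on simulated data. Alternatives covered pseudocount, filter, scaling, blocks and leaving out each library. Promoters and neighbours come from RefSeq GRCr8.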

Additional observations from a re-analysis of the deposited data

Results flagged for a closer look

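In 20 genes (the 7 genes and their families) each group was examined for a library far from the rest, 40 groups in all, of which chance flags about 1 in 20. There were 2 such libraries, both untreated replicate 2 and both in copines. Cpne2 had 1832.6 normalized counts there, with 1629.8 in the nearest untreated library, a gap of 0.898 of the group's range. Cpne5 had 603.7 there, with 375.7 in the nearest, a gap of 0.898 as well. Without that library the log2 difference of Cpne5 was 0.87 (adjusted p = 0.000696 by limma), and none of the 7 genes had a library set apart in this way.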

How the results depend on the processing

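Over 20 alternatives the 7 genes kept their directions, with log2 differences of 2.80 to 3.16 for Cpne9, 2.62 to 3.09 for Prok2, 2.54 to 2.76 for Cilp2, 2.17 to 2.72 for Rasgrp2, 2.21 to 3.12 for Tmem255b, -3.19 to -2.49 for Majin and -2.53 to -1.94 for Qrich2. Values moved by more than the spread between libraries when the libraries were limited to codes ending in 52: Rasgrp2 to 2.17, Tmem255b to 3.12 and Qrich2 to -1.94; the cause was not tested. Of all genes, 3423 to 4068 were called without 1 library (1754 to 2067 higher, 1669 to 2007 lower). A replicate block gave 2761 calls (1351 higher, 1410 lower), against 4321 without it. The numbers did not pair the libraries: same-numbered libraries correlated at 0.031, -0.037, 0.008 and -0.041. A block on the code ending gave 5278 calls, while the main test used no block. Between the groups, libraries with the same code ending correlated at -0.059 to 0.174, and those with different endings at -0.137 to 0.078. Rescaling to equal totals gave 1787 higher and 2528 lower. Of genes other than the 7, Cpne1 ranged from -1.147 to 0.40 without 1 library and was not called. It turned to 0.98 (codes ending in 52), 0.27 (without iAs replicate 3), 0.38 (without iAs replicate 4) and 0.40 (without untreated replicate 2). Ins1, also not called, went to 0 with quantile normalization. That method gives a gene of equal rank in every library the same value, so this 0 is set by the method. Depth limits Majin, with about 6.0 reads in its lowest library.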

Other observations

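Larger differences were found among genes with a mean under 50, which the choice of the 7 left out. Without overlap of groups, 9 such genes differed upward by at least as much as Tmem255b and 18 downward by at least as much as Qrich2. Examples, chosen after their values were seen, were Ramp1, a receptor activity-modifying protein (means 48.3 in libraries labelled iAs and 2.65 in libraries labelled untreated), Ihh, the hedgehog ligand made by prehypertrophic chondrocytes (46.5 in iAs and 6.78 in untreated libraries), and Dkk1, a secreted Wnt inhibitor (20.2 in iAs and 2.48 in untreated libraries). On the other side stood Lexm (3.25 in libraries labelled iAs and 88.2 in libraries labelled untreated), the chemokine Cxcl1 (7.45 in iAs and 64.4 in untreated libraries) and Cd74, the invariant chain (13.5 in iAs and 80.7 in untreated libraries).

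A further 5 upward and 6 downward differences of that size had a mean of at least 50 but overlapping groups, and Rbm12 was one of them. Rbm12 overlaps the copine gene Cpne1 in the RefSeq gene table. Rbm12 had 231, 134, 377, 580.1 and 685 normalized counts in libraries labelled iAs, against 0, 191, 213 and 33.5 in libraries labelled untreated. Cpne1 had 1189, 3048, 113, 85.2 and 1373 in the same iAs libraries, against 112, 2820, 611.5 and 1029 in the same untreated libraries. How the counting divided reads between the overlapping genes is not given in the sources used here.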
